A study of Homo sapiens with 27 samples.

Results

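DNA replication and S phase genes were followed in MDA-MB-231 cells, an invasive human breast cancer line, treated with inhibitors of O-GlcNAc cycling, the reversible attachment of the sugar N-acetylglucosamine to nuclear and cytoplasmic proteins. The set was 38 genes listed by their known roles in replication, and was chosen with earlier results of these data known. It was measured by the 57 probe sets whose platform annotation names 1 of these genes alone. All 38 genes were measured, of 11963 genes measured by 19064 such probe sets, and no filter on dim genes was used, so all 38 were tested. Of the 38 members, 23 had 1 probe set and 15 had more, up to 4 for MCM4. Cells grown in DMEM with serum received DMSO as the vehicle, 5SGlcNAc at 50 µM, which blocks OGT, the transferase that attaches the sugar, or Thiamet-G at 25 µM, which blocks OGA, the hydrolase that takes it off. Each treatment had 1 Affymetrix array at each of 0, 2, 4, 6, 8 and 24 h and 3 arrays at 48 h, 27 arrays in all. The 3 arrays of 0 h carry the name of the treatment series they begin. The series' title names the antioxidant factor NRF2 and its inhibitor KEAP1, and the question here was how replication genes moved with time in culture and with either inhibitor.

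Replication begins when the origin recognition complex with CDC6 and CDT1 loads the MCM2 to MCM7 helicase onto origins in G1 phase. MCM10, CDC45 and the GINS complex then turn the loaded helicase into an active one. Primase and DNA polymerases copy the strands with the help of the PCNA clamp, and CAF-1 places histones on the new DNA. Most of these genes are transcribed late in G1 phase by E2F factors, which are released when cyclin E and its kinase, with other cyclin kinases, phosphorylate the retinoblastoma protein. Their messenger RNA is therefore high in dividing cells and higher still around entry into S phase.

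The 48 h arrays and the arrays of 0 to 24 h were treated as separate sets, since their array medians differed, at 7.68 to 7.76 and 7.43 to 7.53. The labels do not say whether they were processed together. No level of one set was compared with a level of the other. The 3' minus 5' signal of ACTB, which rises as RNA is degraded, was 0.15 to 0.39 (log2) at 48 h, 1.64 in the DMSO array of 4 h, 1.24 in the Thiamet-G array of 4 h and 0.42 to 0.95 in the other arrays of 0 to 24 h. For GAPDH this signal ranged from 0.11 to 0.27 across the 27 arrays. At 48 h the 8 markers of mesenchymal-like breast cancer cells, such as VIM, lay between the percentiles of 72.1 and 99.9 of all genes, the 7 measured markers of haematopoietic cells between 4.6 and 43.7, and the 8 of fibroblasts between 4.8 and 60.7. The 10 luminal epithelial markers ranged from 3.7 to 98.7, with a median of 61.6. Nothing in the labels says whether the 3 arrays of a 48 h group came from separate cultures, so a p-value measures how far these arrays spread, and that spread may be technical.

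Since the members share a known class of transcription factor, their promoters were searched for E2F-type words. The windows ran from 250 bases before to 50 bases after each gene's start in RefSeq (GRCh38.p14), and 33 of the 38 members had one. MCM4, MCM5, POLD3, CCNE2 and E2F5 were not matched. The words were TTTGGCGC, TTTCGCGC, TTTCCCGC and TTTGCCGC on either strand, and a site read on both strands can hold more than 1 of them. Of the 33 members, 17 (51.5%) had such a word, against 581 of 9563 array genes with a window (6.1%) and 3.3% of all 35116 windows. CCAAT on either strand, the word of the factor NF-Y, was in 20 of 33 members (60.6%) and in 44.2% of array genes. TTTGAA on either strand was in 2 of 33 members (6.1%) and in 15.6% of array genes. A match describes letters in a window and was not tested as a site.

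The stretches below show the words, in capitals, in 6 members: GINS2, LIG1 and POLA1, which were lower with 5SGlcNAc at 48 h, PCNA, which rose at 2 to 8 h, MCM6, which has a pair of such places, and E2F1, which codes for an E2F factor itself. Each is 60 bases on the gene's own strand, 5′ to 3′, before its start.
GINS2 (chr16:85688955-85689014, minus strand): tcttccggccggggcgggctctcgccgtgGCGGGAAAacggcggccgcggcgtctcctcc
LIG1 (chr19:48170425-48170484, minus strand): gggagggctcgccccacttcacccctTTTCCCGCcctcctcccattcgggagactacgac
POLA1 (chrX:24693755-24693814, plus strand): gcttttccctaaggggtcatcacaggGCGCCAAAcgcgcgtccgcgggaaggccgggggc
PCNA (chr20:5126648-5126707, minus strand): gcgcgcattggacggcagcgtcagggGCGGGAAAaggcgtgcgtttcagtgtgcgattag
MCM6 (chr2:135876500-135876559, minus strand): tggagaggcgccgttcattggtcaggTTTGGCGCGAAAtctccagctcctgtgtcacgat
MCM6, farther from the start (chr2:135876562-135876621, minus strand): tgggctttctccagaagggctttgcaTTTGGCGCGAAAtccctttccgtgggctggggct
E2F1 (chr20:33686386-33686445, minus strand): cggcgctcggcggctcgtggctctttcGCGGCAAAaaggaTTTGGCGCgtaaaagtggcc

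In GINS2, PCNA and POLA1 the word reads on the opposite strand. In MCM6 both places hold TTTGGCGC overlapped by TTTCGCGC on the opposite strand, 90 and 152 bases before the start. The word began 31 bases before the start in GINS2, 59 in PCNA, 114 in LIG1 and 137 in POLA1. MCM7 had a word 9 bases before one of its starts. In all, 13 of the 17 members had a word that lay wholly before the start.

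With 5SGlcNAc for 48 h, 11 of the 38 members were lower than with DMSO and none was higher, at an adjusted p under 0.05 in limma (Benjamini-Hochberg over 11963 genes). Over all genes, 7.32% were lower and 2.92% higher in this comparison. The lower members came from every role except the regulators of S phase entry: MCM7, MCM5 and MCM2 of the licensing genes, GINS1 and GINS2, the clamp loader subunit RFC4, the polymerase genes POLA1 and POLD1, the ligase LIG1, the thymidine kinase TK1 and the histone chaperone subunit CHAF1B. The median log2 difference of the 38 members was -0.12, against 0.01 for all genes, and 32 of the members lay below 0, 5 above and PRIM1 at 0. In 23 of the 38 members all 3 arrays with 5SGlcNAc lay below all 3 with DMSO, a pattern that 18.5% of all genes showed. The opposite pattern was seen in none of the members and in 12.7% of all genes. In RNA of whole cultures, fewer cells in S phase and less of a transcript per cell cannot be told apart.

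**Figure D1:**
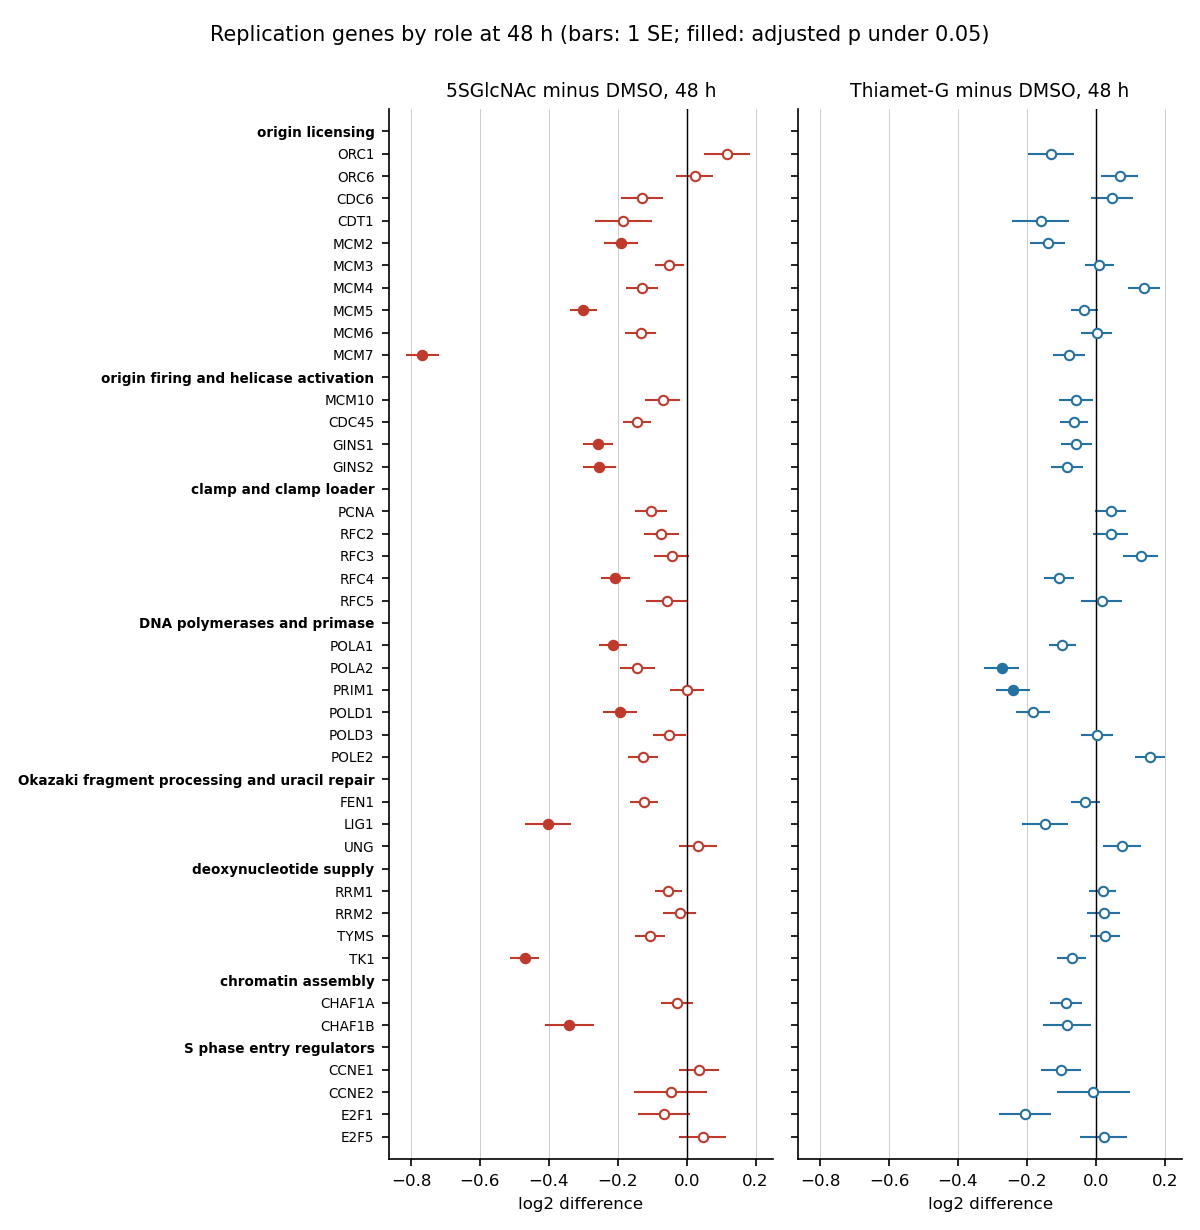
Log2 difference (bars, 1 SE; 3 arrays a group) of each of the 38 members by role at 48 h, for 5SGlcNAc minus DMSO on the left and Thiamet-G minus DMSO on the right, with filled points where the adjusted p of limma was under 0.05. With 5SGlcNAc, 11 points are filled, all below 0, and MCM7 at -0.77 lies farthest out, while with Thiamet-G only POLA2 and PRIM1 are filled.

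Among the licensing genes, MCM7, a subunit of the replicative helicase, had the largest difference of the set. Its log2 level was 11.27, 11.33 and 11.34 with DMSO, 11.21, 11.19 and 11.31 with Thiamet-G, and 10.52, 10.53 and 10.59 with 5SGlcNAc. The 3 arrays with 5SGlcNAc lay apart from the other 6, which were within 0.15 of each other. MCM7 fell by 0.77 (SE 0.05, n = 3 arrays a group) on the log2 scale against DMSO, a 1.70-fold lower level, with an adjusted p of 4.4e-05 in limma. Its other probe set, read alone, fell by 0.70.

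MCM5, of the same helicase ring, read 10.58, 10.53 and 10.55 with DMSO and 10.27, 10.21 and 10.28 with 5SGlcNAc, without overlap. It fell by 0.30 (SE 0.04, adjusted p = 0.0020 in limma), and its other probe set fell by 0.35. MCM2 read 11.36, 11.34 and 11.35 with DMSO and 11.16, 11.13 and 11.19 with 5SGlcNAc, and fell by 0.19 (SE 0.05, adjusted p = 0.041 in limma). The MCM2 arrays did not overlap either, but the call was lost under 10 of the 15 alternatives tried. The remaining helicase subunits MCM3, MCM4 and MCM6 had differences of -0.05, -0.13 and -0.13 that did not pass the test by their brightest probe sets. Of the 4 probe sets of MCM4, 1 dimmer one passed, at -0.25 (adjusted p = 0.040 in limma over 19064 probe sets). Subunits of a single ring therefore gave values from -0.77 to -0.05. The loading factors CDC6 and CDT1 stood at -0.13 and -0.18, and the origin recognition subunits ORC1 and ORC6 at 0.12 and 0.02, none of them past the test.

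**Figure D2:**
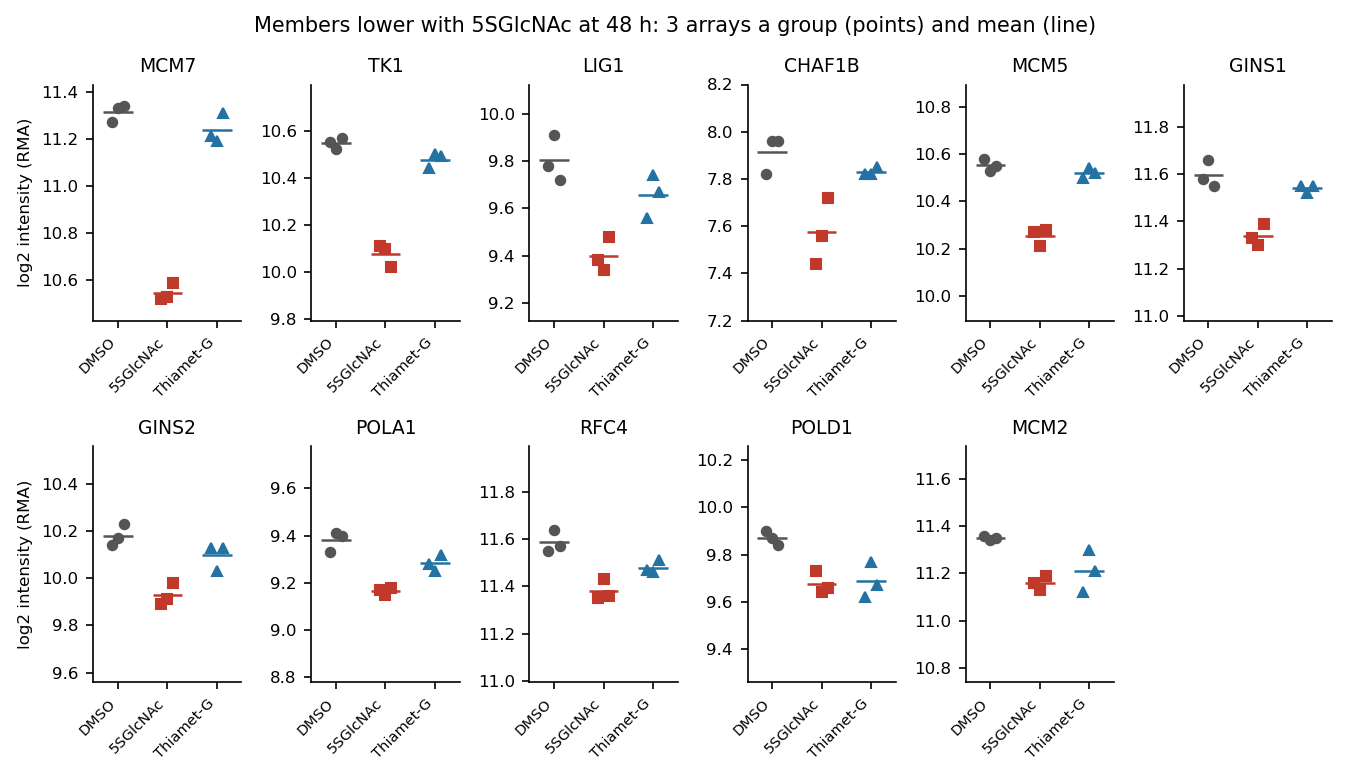
Log2 level (RMA) in each 48 h array of the 11 members lower with 5SGlcNAc than with DMSO, with 3 arrays each for DMSO (circles), 5SGlcNAc (squares) and Thiamet-G (triangles) and the group mean as a line, and each panel spanning 1 log2 unit. In all 11 panels the squares lie below the circles without overlap, with the widest gap in MCM7.

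The genes that activate the helicase were lower in all 4 cases, and 2 of the 4 passed the test. GINS1 read 11.58, 11.66 and 11.55 with DMSO and 11.33, 11.30 and 11.39 with 5SGlcNAc, and fell by 0.26 (SE 0.04, adjusted p = 0.0072 in limma). GINS2 read 10.14, 10.17 and 10.23 with DMSO and 9.89, 9.91 and 9.98 with 5SGlcNAc, and fell by 0.25 (SE 0.05, adjusted p = 0.010 in limma). For both genes every array with 5SGlcNAc lay below every array with DMSO. CDC45, the third partner of the active helicase, stood at -0.14 and missed the threshold (adjusted p = 0.057 in limma), and MCM10 stood at -0.07.

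Of the clamp PCNA and its 4 loader subunits, only RFC4 passed. It read 11.55, 11.64 and 11.57 with DMSO and 11.35, 11.43 and 11.36 with 5SGlcNAc, and fell by 0.21 (SE 0.04, adjusted p = 0.016 in limma). Its arrays did not overlap, and the call was lost in 3 of the 6 fits that left out 1 of these arrays. PCNA stood at -0.10, and RFC2, RFC3 and RFC5 between -0.07 and -0.04.

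Among polymerases, POLA1, the catalytic subunit of the priming polymerase, read 9.33, 9.41 and 9.40 with DMSO and 9.17, 9.15 and 9.18 with 5SGlcNAc. It fell by 0.21 (SE 0.04, adjusted p = 0.010 in limma). POLD1, the catalytic subunit of the lagging-strand polymerase, read 9.90, 9.87 and 9.84 with DMSO and 9.73, 9.64 and 9.66 with 5SGlcNAc, and fell by 0.19 (SE 0.05, adjusted p = 0.038 in limma), a call lost under 10 of 15 alternatives. Both pairs of groups were without overlap. POLA2, POLE2 and POLD3 stood at -0.14, -0.13 and -0.05, and the primase subunit PRIM1 at 0.

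LIG1, which joins Okazaki fragments, read 9.78, 9.91 and 9.72 with DMSO and 9.38, 9.34 and 9.48 with 5SGlcNAc. All 3 arrays with 5SGlcNAc were lower, and the fall was 0.40 (SE 0.07, adjusted p = 0.0059 in limma), a 1.32-fold lower level. The flap nuclease FEN1 stood at -0.12 and the uracil glycosylase UNG at 0.03, neither past the test.

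TK1, the thymidine kinase of the salvage pathway, had the second largest fall. It read 10.55, 10.52 and 10.57 with DMSO and 10.11, 10.10 and 10.02 with 5SGlcNAc, a fall of 0.47 (SE 0.04, adjusted p = 0.00026 in limma) and 1.39-fold. The highest array with 5SGlcNAc lay well under the lowest with DMSO. The other genes of nucleotide supply did not pass: TYMS stood at -0.11, the ribonucleotide reductase subunit RRM1 at -0.05 and RRM2 at -0.02.

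CHAF1B, a subunit of CAF-1, read 7.82, 7.96 and 7.96 with DMSO and 7.44, 7.56 and 7.72 with 5SGlcNAc. Its 5SGlcNAc arrays had the widest spread of any member in that group (SD 0.14) and still lay below those with DMSO, and it fell by 0.34 (SE 0.07, adjusted p = 0.016 in limma). The call was lost in 4 of the 6 fits that left out 1 of these arrays. CHAF1A, its partner, stood at -0.03 by its brightest probe set, which is of shared sequence. Its other probe sets stood at -0.06 and -0.16 and did not pass the test either.

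For the regulators of S phase entry the differences were small, and whether they differed from those of the other members was not tested. CCNE1 and CCNE2, the cyclins E, stood at 0.04 and -0.05, the activator E2F1 at -0.07 and E2F5, usually classed as a repressor, at 0.05. None of the 4 passed the test. The SE of CCNE2 was 0.11, and its arrays spanned 10.72 to 11.11 with DMSO and 10.77 to 11.12 with Thiamet-G, against 10.87 to 10.88 with 5SGlcNAc.

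With Thiamet-G for 48 h, POLA2 and PRIM1 were lower than with DMSO and no member was higher, where 3.01% of all genes were lower and 0.476% higher. POLA2, the regulatory subunit of the priming polymerase, read 9.17, 9.12 and 9.11 with DMSO and 8.85, 8.96 and 8.77 with Thiamet-G, a fall of 0.27 (SE 0.05, adjusted p = 0.024 in limma). PRIM1, which makes the RNA primer, read 10.64, 10.76 and 10.68 with DMSO and 10.51, 10.38 and 10.47 with Thiamet-G, a fall of 0.24 (SE 0.05, adjusted p = 0.033 in limma). Both genes were without overlap. Both calls were lost with median centring, with the arrays of the 2 groups alone and on leaving out any DMSO array. At an unadjusted p under 0.05 there were 10 members (26.3%), against 19.8% of all genes. All 3 arrays with Thiamet-G lay below those with DMSO in 10 of 38 members, against 15.1% of all genes, and above them in 3, against 6.37%. The member median was -0.05.

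Set directly against Thiamet-G, 5SGlcNAc gave lower levels of 9 members and higher levels of 2, where 6.79% of all genes were lower and 6.87% higher. This comparison and those against DMSO share arrays, so the lists are not independent. MCM7 was lower by a log2 difference of -0.69, TK1 by -0.40 and MCM5 by -0.27 (adjusted p 5.8e-05, 0.00045 and 0.0025 in limma). POLE2, a subunit of the leading-strand polymerase, read 10.80, 10.68 and 10.76 with Thiamet-G and 10.44, 10.46 and 10.49 with 5SGlcNAc, a difference of -0.28 (SE 0.04, adjusted p = 0.0029 in limma). MCM4 read 11.07, 10.96 and 11.06 with Thiamet-G and 10.80, 10.78 and 10.70 with 5SGlcNAc, a difference of -0.27 (SE 0.05, adjusted p = 0.0052 in limma). For both genes the DMSO arrays lay between the groups: 10.57, 10.61 and 10.59 for POLE2 and 10.89 in all 3 for MCM4. The other lower members were LIG1, CHAF1B, GINS1 and GINS2. PRIM1 and ORC1 were higher with 5SGlcNAc, by 0.24 and 0.25 (adjusted p 0.012 and 0.042 in limma). PRIM1 read 10.67, 10.72 and 10.69 with 5SGlcNAc, close to DMSO, and ORC1 read 8.73, 8.61 and 8.67 against 8.36, 8.36 and 8.55 with Thiamet-G. In both genes the arrays of the inhibitors did not overlap. All 3 arrays with 5SGlcNAc lay above those with Thiamet-G in 4 members, against 16.1% of all genes, and below them in 19, against 13.2%.

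Other genes of the cell cycle were taken from lists of their known roles. Of 40 other replication genes, 9 were lower and 1 was higher with 5SGlcNAc at 48 h (median -0.06). DCK, a nucleoside kinase, fell by 0.38 (adjusted p = 0.015), POLD4 by 0.36 (adjusted p = 0.025) and the histone chaperone ASF1B by 0.32 (adjusted p = 0.0045), while ASF1A rose by 0.25 (adjusted p = 0.026; all limma). Of 21 regulators of G1 and S phase, E2F8 fell by 0.34, CDK2 fell by 0.24 and E2F6 rose by 0.26. Of 14 genes of replication-coupled repair and checkpoints, BRIP1 fell by 0.50 and BLM fell by 0.24. Of 30 mitosis genes, which act after S phase, 10 were lower and none higher, with a median of -0.15. CDC25C fell by 0.27, and KIF20A and NUSAP1 each fell by 0.26. In the same comparison 3 of 10 luminal epithelial markers were lower, CLDN7 at -0.48, KRT19 at -0.42 and CDH1 at -0.29. Of the 8 markers of the line itself 2 were lower, PLAU at -0.55 and LOX at -0.44, and 7 of the 8 lay below 0. None of the 7 haematopoietic markers and 1 of 8 fibroblast markers, LUM at -0.49, passed. The part of these changes in the members' values was not tested.

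The members were then followed from 0 h. Each treatment series, with its own 0 h array, entered as a block and stood in for a replicate. At 2 to 8 h, 6 members were higher than at 0 h and 1 was lower, where 1.74% of all genes were higher and 1.74% lower. CCNE2, ORC6, PCNA, ORC1, RRM2 and TYMS rose and E2F5 fell. The median log2 difference of the members was 0.13, against 0.00 for all genes, and 34 of 38 lay above 0. The 4 below 0 were E2F5, CDT1 (-0.13), POLA2 (-0.07) and PRIM1 (-0.01). The mean of 2 to 8 h was above 0 h in all 3 series for 32 of the 38 members and for 21.0% of all genes. In 12 members all 12 arrays of 2 to 8 h lay above all 3 arrays of 0 h, which held for 1.66% of all genes. These 12 were ORC1, ORC6, MCM3, MCM4, MCM6, CDC45, RFC2, RFC5, FEN1, TYMS, TK1 and CCNE2. The rise was present with the vehicle: the member median was 0.08 in the DMSO series, 0.15 in the 5SGlcNAc series and 0.14 in the Thiamet-G series, with 32, 34 and 34 of 38 members above 0. With 2 series in place of 3, the count of 6 fell to 0 without the DMSO series, 0 without the 5SGlcNAc series and 1 without the Thiamet-G series, and it was 3 without the arrays of 8 h. In the 3 fits that left out a series, the genes called higher over the whole array fell from 208 to 1, 16 and 55, while the member median was 0.15, 0.12 and 0.13, with 35, 34 and 33 of 38 members above 0.

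**Figure D3:**
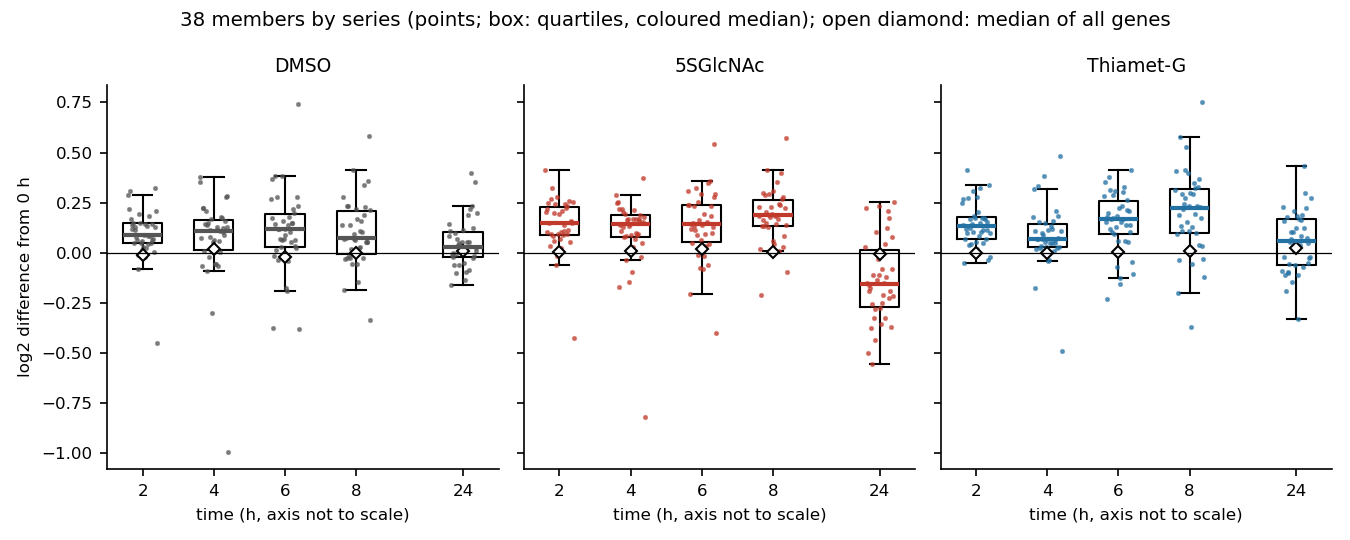
Log2 difference of single arrays from the 0 h array of their series for the 38 members (points; boxes, quartiles with a coloured median) at 2, 4, 6, 8 and 24 h, with 1 panel per series and the median of all genes as an open diamond. Member medians lie above the diamonds from 2 to 8 h in every series, and at 24 h the median is -0.16 in the 5SGlcNAc series, 0.03 in the DMSO series and 0.06 in the Thiamet-G series.

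Of the licensing genes, ORC6 and ORC1 passed. ORC6 read 10.65, 10.71 and 10.64 at 0 h in the DMSO, 5SGlcNAc and Thiamet-G series, and its 12 arrays of 2 to 8 h ran from 10.87 through a median of 10.96 to 11.04. ORC1 read 7.95, 7.91 and 7.90 at 0 h and 8.07 to 8.33 at 2 to 8 h, with a median of 8.19. No array of 2 to 8 h reached down to 0 h for either gene. ORC6 rose by 0.29 (SE 0.04, adjusted p = 0.0024) and ORC1 by 0.27 (SE 0.05, adjusted p = 0.011), both by limma. ORC6 was measured by a probe set of shared sequence only. MCM4 at 0.25 and MCM6 at 0.21 missed the threshold over the pooled times (adjusted p = 0.054 and 0.053 in limma), though both passed at 8 h alone.

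PCNA, the sliding clamp, read 12.92, 12.97 and 12.85 at 0 h, and 12.91 to 13.38 at 2 to 8 h with a median of 13.19. The lowest of these 12 arrays, that of 5SGlcNAc at 2 h, lay within the range of 0 h, and the other 11 lay above it. PCNA rose by 0.27 (SE 0.06, adjusted p = 0.021 in limma).

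In nucleotide supply, RRM2, the subunit of ribonucleotide reductase made in S phase, read 12.40, 12.28 and 12.32 at 0 h and 12.36 to 12.74 at 2 to 8 h, with a median of 12.58. The groups overlapped in part, and RRM2 rose by 0.23 (SE 0.06, adjusted p = 0.032 in limma). Its other probe set rose by 0.41 (SE 0.05, adjusted p = 0.0012 in limma over 19064 probe sets). TYMS, which makes thymidylate, read 13.36, 13.36 and 13.35 at 0 h and 13.47 to 13.71 at 2 to 8 h, with a median of 13.55 and no overlap. TYMS rose by 0.20 (SE 0.04, adjusted p = 0.011 in limma). RRM1 and TK1 stood at 0.13 and 0.12.

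CCNE2 had the largest rise of the set. Its level was 10.70, 10.67 and 10.70 at 0 h, and 10.82 to 11.46 over the 12 arrays of 2 to 8 h, with a median of 11.15 and no overlap. It rose by 0.45 (SE 0.08, adjusted p = 0.0050 in limma), a 1.37-fold higher level, and reached 0.57 at 6 h and 0.64 at 8 h. These values are those of its brightest probe set. Its other probe set stood at 0.34 (SE 0.12) and did not pass (adjusted p = 0.15 in limma over 19064 probe sets). That probe set overlapped with 0 h: its DMSO array read 7.45 at 4 h and 7.82 at 0 h. CCNE1 stood at 0.17 and E2F1 at 0.16, not past the test.

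E2F5 moved the other way. It read 9.54, 9.45 and 9.48 at 0 h, and 8.55 to 9.46 at 2 to 8 h with a median of 9.13. The lowest values were those of 4 h, 8.55 with DMSO, 8.63 with 5SGlcNAc and 8.99 with Thiamet-G, and the highest, 9.46 with Thiamet-G at 2 h, lay within the range of 0 h. E2F5 fell by 0.39 over 2 to 8 h (SE 0.07, adjusted p = 0.0085) and by 0.77 at 4 h (adjusted p = 0.00077), both by limma. At 4 h it was the 1 member among the 1.95% of genes that were lower. The ACTB 3' minus 5' signal was 1.64, 0.89 and 1.24 in these 3 arrays of 4 h, and its part in the E2F5 value was not tested. Without 4 h, the call of E2F5 over the remaining times was lost. The values of E2F5 given here are those of its brightest probe set. Its other probe set was dim, with a mean log2 level of 3.46 over the arrays of 0 to 24 h. That probe set stood at -0.07 over 2 to 8 h and did not pass (adjusted p = 0.71 in limma over 19064 probe sets).

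**Figure D4:**
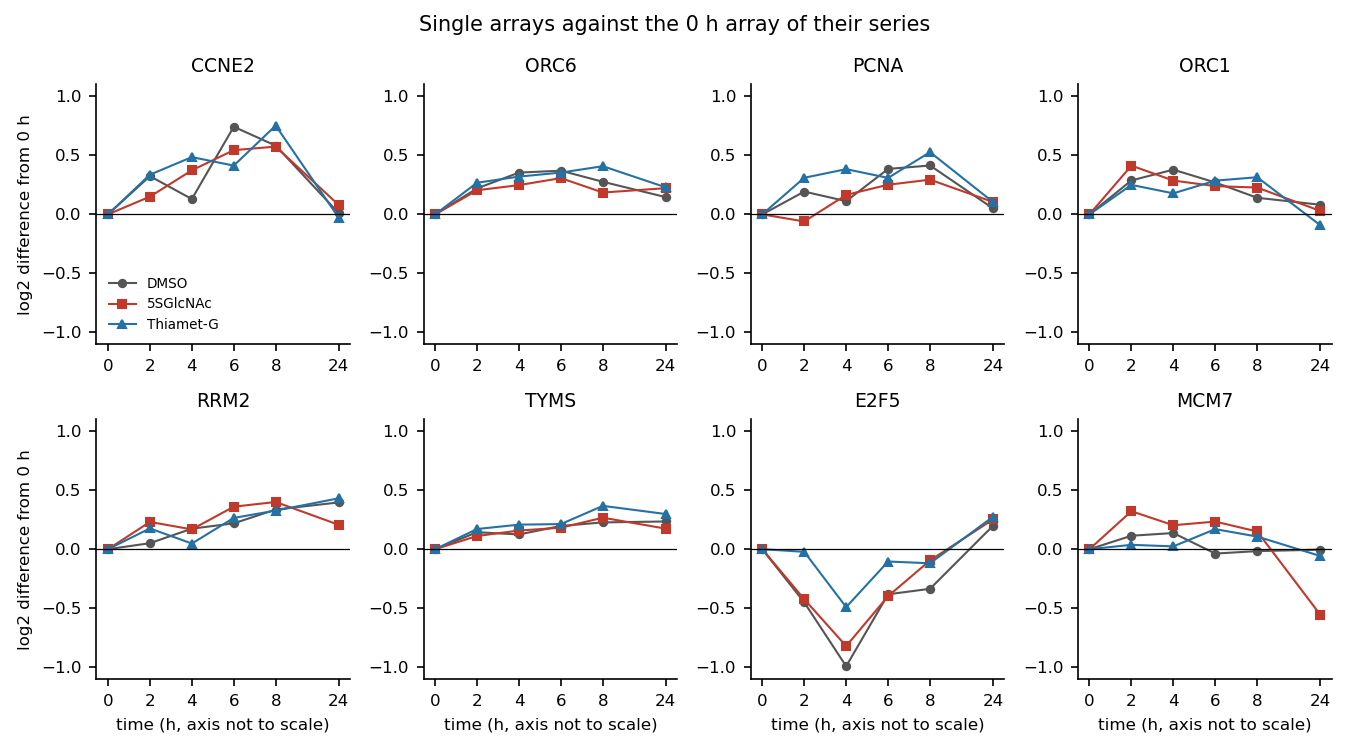
Log2 difference from the 0 h array of the same series at 2, 4, 6, 8 and 24 h (time axis not to scale) for the 6 members that rose at 2 to 8 h, for E2F5, which fell, and for MCM7, with 1 line each for DMSO (circles), 5SGlcNAc (squares) and Thiamet-G (triangles) and 1 array per point. ORC6 and TYMS lie above 0 in all 3 series from 2 h on, E2F5 is lowest at 4 h in every series, and MCM7 at 24 h is lowest in the 5SGlcNAc series.

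Taken at single times against 0 h, the number of members higher was 0 at 2 h, 2 at 4 h, 6 at 6 h and 9 at 8 h, where 0.209%, 1.33%, 2.27% and 3.87% of all genes were higher. At 4 h these were ORC1 and ORC6. At 8 h they were ORC6, MCM4 (0.37), MCM6 (0.27), PCNA (0.41), RFC5 (0.25), RRM1 (0.22), RRM2 (0.35), TYMS (0.29) and CCNE2. For RFC5, a clamp loader subunit, 1 of its 3 probe sets pointed the other way over 2 to 8 h, at -0.09, against 0.15 for the brightest. UNG, PRIM1 and GINS1 were among the members that passed at none of these times.

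Of the 40 other replication genes, DNA2 rose by 0.29 and NASP by 0.26 at 2 to 8 h, and ORC2 fell by 0.22 (adjusted p 0.019, 0.032 and 0.032 in limma). The median of these 40 genes was 0.07, with 30 above 0 and 10 below. Of the G1 and S phase regulators, CDKN1A, an inhibitor of cyclin kinases, rose by 0.46 and SKP2 by 0.25. EXO1 and RAD51AP1, of the repair list, rose by 0.28 and 0.20. None of the 30 mitosis genes passed, and their median was 0.00. Among the luminal markers, CDH1 fell by 0.55, KRT19 by 0.41 and GATA3 by 0.30 in the same comparison, and the part of this in the members' values was not tested.

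At 24 h against 0 h, 3 members were higher, RRM2 at 0.34, TYMS at 0.24 and ORC6 at 0.20, and none was lower, where 4.83% of all genes were higher and 5.14% lower. RRM2 read 12.80, 12.48 and 12.75 at 24 h in the DMSO, 5SGlcNAc and Thiamet-G series, TYMS 13.59, 13.53 and 13.64, and ORC6 10.80, 10.93 and 10.87. All 9 of these values exceeded the 0 h arrays of their gene. The count fell to 0 without the DMSO series, 1 without the 5SGlcNAc series and 0 without the Thiamet-G series. Over the whole array, 578 higher and 615 lower genes became 105 and 220, 130 and 136, and 181 and 245 in these 3 fits. The adjusted p of limma was 0.0061 for RRM2, 0.0067 for TYMS and 0.033 for ORC6.

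Against 2 to 8 h, 15 members were lower at 24 h and 1 was higher, where 6.74% of all genes were lower and 7.02% higher. Of the 10 licensing genes 7 fell, MCM2 to MCM7 and ORC1, and their median was -0.26. GINS2, RFC2, PRIM1, POLD3, LIG1, CHAF1B, CCNE2 and E2F1 made up the rest. In 7 members, ORC1, MCM3, MCM5, MCM6, RFC2, POLD3 and CCNE2, all 3 arrays of 24 h lay below all 12 of 2 to 8 h, which held for 2.92% of all genes. The mitosis list had the opposite sign, with 9 of 30 genes higher, none lower and a median of 0.10.

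**Figure D5:**
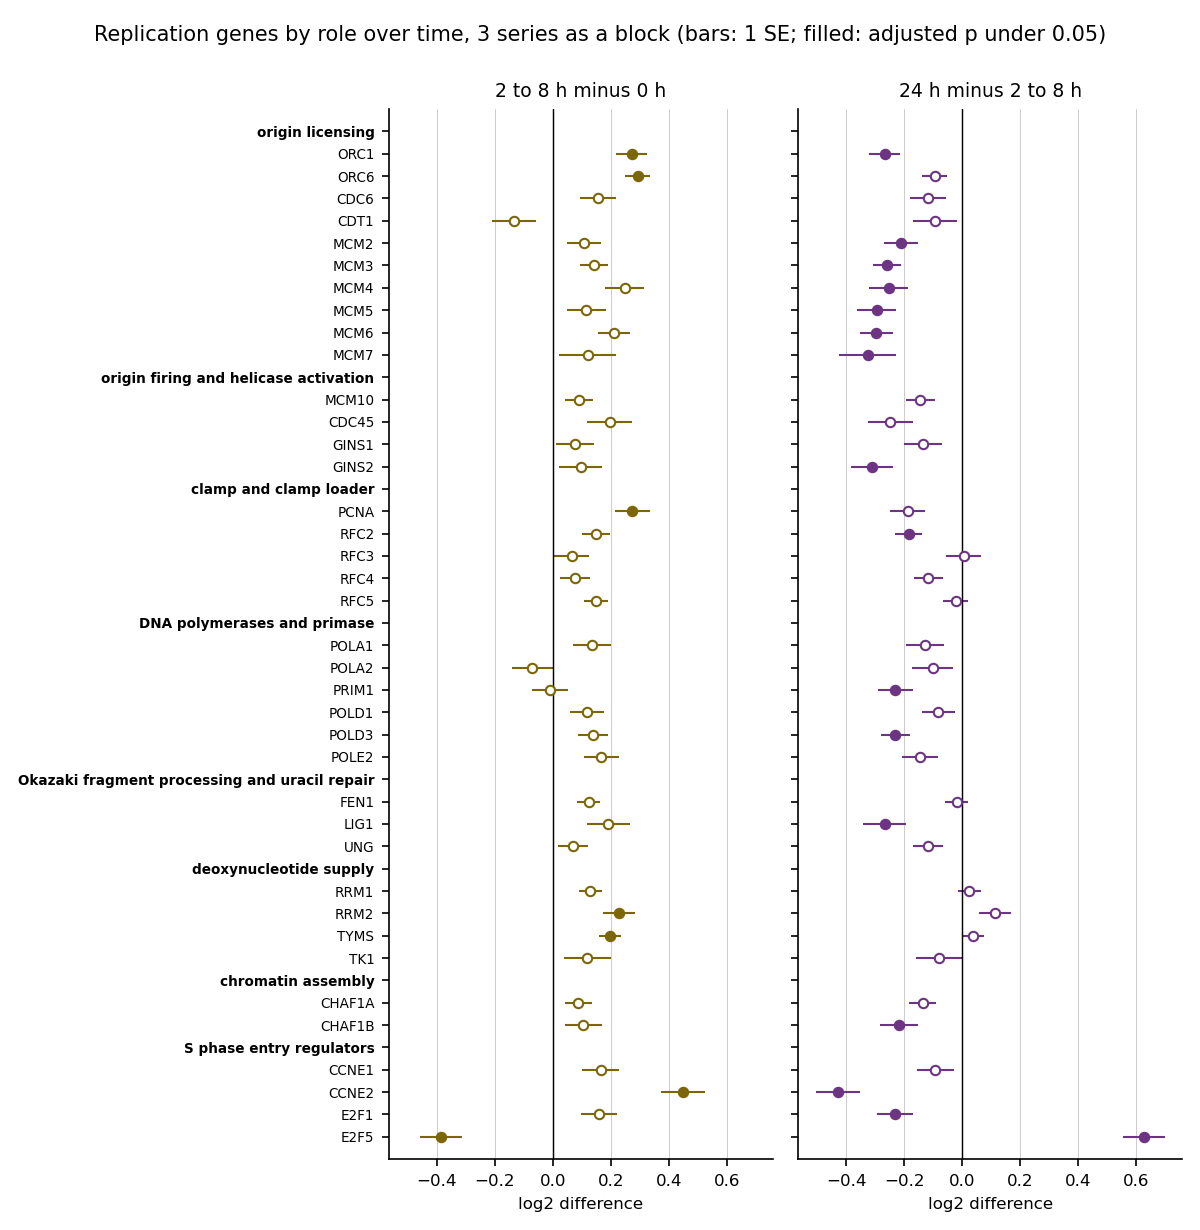
Log2 difference (bars, 1 SE; 3 series as a block) of each of the 38 members by role, for 2 to 8 h minus 0 h on the left and 24 h minus 2 to 8 h on the right, with filled points where the adjusted p of limma was under 0.05. Most points lie above 0 on the left and below 0 on the right, E2F5 has the opposite sign in both panels, and the licensing genes hold 7 of the 15 filled points below 0 on the right.

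By its brightest probe set, CCNE2 was back at 10.71, 10.75 and 10.68 at 24 h, below its lowest array of 2 to 8 h and beside its level at 0 h. It fell by 0.43 from 2 to 8 h (SE 0.08, adjusted p = 0.0018 in limma). The other probe set of CCNE2 read 8.26, 7.88 and 8.16 at 24 h in the DMSO, 5SGlcNAc and Thiamet-G series. At 0 h it read 7.82, 7.91 and 7.87. E2F5, also by its brightest probe set, read 9.74, 9.70 and 9.75, above all 15 earlier arrays, and rose by 0.63 (SE 0.07, adjusted p = 7.2e-05 in limma). MCM6 read 11.06 at most at 24 h and 11.08 at least at 2 to 8 h, and fell by 0.30 (SE 0.06, adjusted p = 0.0030 in limma).

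By series, each with 1 array at 24 h and no test of the difference between them, the member median of 24 h minus 2 to 8 h was -0.05 in the DMSO series, -0.32 in the 5SGlcNAc series and -0.10 in the Thiamet-G series, and 27, 36 and 27 of 38 members lay below 0. MCM7 read 11.05 at 24 h with DMSO, 11.00 with Thiamet-G and 10.40 with 5SGlcNAc. GINS2 was lower at 24 h than at 2 to 8 h by a log2 difference of -0.07 with DMSO, -0.30 with Thiamet-G and -0.56 with 5SGlcNAc. Without the 5SGlcNAc series the count of 16 members called at 24 h against 2 to 8 h became 2, without the DMSO series 9 and without the Thiamet-G series 6. Calls over the whole array fell too, from 806 lower and 840 higher genes. They became 205 and 350 without the 5SGlcNAc series, 437 and 257 without DMSO and 410 and 361 without Thiamet-G. RRM2's probe sets disagreed here, with 0.12 by the brightest and -0.23 by the other (adjusted p 0.21 and 0.0099 in limma over probe sets).

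Over 2 to 24 h, each inhibitor was compared with DMSO with time as a block, so that 5 times stood in for replicates. No member passed for 5SGlcNAc or for Thiamet-G, and 0% of all genes were called in either direction in either comparison by limma. At an unadjusted p under 0.05 there were 3 members (7.89%) for 5SGlcNAc, against 4.38% of all genes, and 2 (5.26%) for Thiamet-G, against 9.29%. Time by time, with 1 array each and no test, the member median of 5SGlcNAc minus DMSO was 0.01 at 2 h, -0.03 at 4 h, -0.02 at 6 h, 0.05 at 8 h and -0.22 at 24 h. At 24 h, 34 of 38 members were lower with 5SGlcNAc than with DMSO, with an all-gene median of -0.04. The lowest single values were MCM7 at -0.65, GINS2 at -0.50, CDC45 at -0.50, POLA1 at -0.47 and CCNE1 at -0.46, and TK1 stood at -0.42. PCNA (0.11), ORC6 (0.13), RFC5 (0.13) and CCNE2 (0.04) were the 4 members above 0. Thiamet-G minus DMSO had a member median of -0.03 at 24 h and 22 of 38 members below 0.

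The effect of 5SGlcNAc at 48 h was also tested against its mean effect over 2 to 24 h, each within its own set of arrays. MCM7 and TK1 had a lower value at 48 h, by -0.70 (SE 0.14, adjusted p = 0.014 in limma) and -0.46 (SE 0.12, adjusted p = 0.0498 in limma). Of all genes 1.41% were lower and 0.368% higher in this test, and no other member passed. The mean effect over 2 to 24 h was -0.07 for MCM7 and -0.01 for TK1. With 2 to 8 h alone as the earlier set, 7 members passed in place of 2, and 507 genes over the whole array were lower in place of 169.

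The promoter words were set beside the calls, with no test. Of the 11 members lower with 5SGlcNAc at 48 h, 10 had a promoter window and 6 of these an E2F-type word, against 11 of the 23 other members with a window. Of the 6 members that rose at 2 to 8 h, 5 had a window and 2 of these a word, PCNA, shown above, and TYMS. RRM2, ORC1 and ORC6 had none of the 4 words in their windows. The letters searched cover part of what E2F factors can bind, and their absence says nothing about the factor.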

How the data were processed

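The authors deposited log2 values, 1 for each probe set and array. The submitters' processing notes name RMA, without a version. RMA equalises the arrays processed together, so it can hide a change common to most genes. The 9 arrays of 48 h and the 18 of 0 to 24 h were analysed apart. Of 22277 probe sets, 19064 named 1 gene, 1043 several and 2108 none, and 62 were controls. Each gene was read by its brightest probe set over the arrays of a fit. limma 3.58.1 (lmFit and eBayes, R 4.3.3) was run on all 11963 genes, two-sided, with Benjamini-Hochberg adjustment and a threshold of 0.05, and was tested on simulated data. All 3 groups of 48 h shared 1 estimate of the spread (6 residual degrees of freedom). Time was tested with the treatment series as a block, and inhibitors over 2 to 24 h with time as a block. The number of arrays limits the precision: the median SE of a log2 difference was 0.06 at 48 h. The members, lists and tests were chosen with earlier results of these data known. Values in every array were given for members called lower with 5SGlcNAc at 48 h without overlap, for the 6 largest changes called at 2 to 8 h and for up to 4 in each direction elsewhere, and values for up to 3 genes a list. E2F5 is shown in addition. Promoter sequences are RefSeq's (GRCh38.p14).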

Additional observations from a re-analysis of the deposited data

Results flagged for a closer look

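The effect of 5SGlcNAc on MCM7 and on TK1 differed between the 48 h arrays and the earlier ones by a test of the difference itself (limma, adjusted over 11963 genes). For MCM7 the effect at 48 h minus the mean effect over 2 to 24 h was -0.701 on the log2 scale, and this call held under all 15 alternatives tried. For TK1 it was -0.4579, and the call was lost under 10 of 15 alternatives. The earlier effect is a mean over 5 times, of which 24 h alone stood at -0.65 for MCM7 and -0.42 for TK1.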

How the results depend on the processing

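Of 52 calls of a member in a comparison, none changed sign under any alternative: of 792 values, 612 kept the call and 180 lost it. The calls of MCM5, MCM7, GINS1, GINS2, POLA1, LIG1 and TK1 for 5SGlcNAc against DMSO at 48 h held under all 15 alternatives. Between inhibitors 6 of 11 calls held under every alternative, and for Thiamet-G against DMSO 0 of 2. Over time, 0 of 7 held at 2 to 8 h against 0 h and 0 of 3 at 24 h against 0 h. At 24 h against 2 to 8 h, 1 of 16 held, that of E2F5. Leaving out dim genes gave 17 members in place of 11 for 5SGlcNAc against DMSO and 4 in place of 2 for Thiamet-G. Between inhibitors it gave 17 in place of 11. It gave 12 in place of 6 at 2 to 8 h and 5 in place of 3 at 24 h against 0 h. Calls over all genes rose in each of these comparisons too, although fewer genes were tested. With 5SGlcNAc 1213 genes were lower in place of 876. With Thiamet-G 789 were lower and 160 higher, in place of 360 and 57. Between inhibitors 1086 were lower and 1119 higher, in place of 812 and 822. Trend and robust variance gave 18, 4, 17, 12 and 5 members in these comparisons. Over all genes it gave 1244 lower with 5SGlcNAc, and 724 lower and 201 higher with Thiamet-G. Between inhibitors it gave 1147 lower and 1098 higher. At 2 to 8 h it gave 346 higher, and at 24 h against 0 h 759 higher and 750 lower. With only the arrays of the groups compared, the counts were 0 for Thiamet-G and 7 for the inhibitors against each other, and median centring gave 0 for Thiamet-G. Over all genes, the 2 groups alone gave 111 lower and 18 higher with Thiamet-G, and 571 and 498 between inhibitors. Median centring gave 175 lower and 60 higher with Thiamet-G. With replicate number as a block, the counts were 9, 0 and 7 at 48 h and 1 for the difference between 48 h and 2 to 24 h. The block gave, over all genes, 676 lower and 219 higher with 5SGlcNAc and 167 and 19 with Thiamet-G. Between inhibitors these were 624 and 538, and for the difference 104 and 27. Deviations of arrays with the same number correlated between -0.33 and 0.17. With 3 arrays a group, this cannot show whether the numbers pair the samples. The difference between 48 h and 2 to 24 h had 1 member with the mean of probe sets, without probe sets of shared sequence, and with all probe sets fitted. In these fits 133 genes, 158 genes and 149 probe sets were lower over the whole array. The difference had 7 members with 2 to 8 h alone, where 507 genes over the whole array were lower in place of 169. Leaving out 1 array, time or series gave 7 to 9 members for 5SGlcNAc (7 without DMSO replicate 2 or 5SGlcNAc replicate 1), 0 to 5 for Thiamet-G, 6 to 12 between inhibitors, 0 to 7 at 2 to 8 h, 0 to 1 at 24 h against 0 h, 2 to 13 at 24 h against 2 to 8 h and 1 for the difference. Over all genes, 529 to 744 were then lower with 5SGlcNAc, 87 to 485 with Thiamet-G and 515 to 987 between inhibitors. From 1 to 292 genes were higher at 2 to 8 h and 105 to 181 at 24 h against 0 h. Genes lower at 24 h against 2 to 8 h numbered 205 to 826, and for the difference 69 to 140. The inhibitors over 2 to 24 h had 0 members under all alternatives run.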
